A study of Mus musculus with 8 samples.

Results

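The genes described here build and run the lysosome of mouse macrophages, namely subunits of its proton pump, its proteases and other hydrolases, its membrane proteins, and 2 transcription factors that switch such genes on. They are 42 genes picked by symbol from the 54532 genes of the deposited count table, and all 42 were among the 12234 genes with enough reads to be tested. By role they are 5 genes of the V0 sector, 8 of the V1 sector and 1 accessory subunit of the vacuolar ATPase (V-ATPase), 10 lysosomal proteases, 7 glycan and lipid hydrolases, 2 precursor proteins, 7 membrane, sterol and channel proteins, and the transcription factors Tfeb and Tfe3. RNA was sequenced from bone marrow-derived macrophages (BMDMs), cells taken from mouse bone marrow and cultured into macrophages. Control cells received no stimulus. The LPS group was given 100 ng/ml of lipopolysaccharide (LPS), from the outer membrane of bacteria, for 4 h. The IL-4 group was kept for 24 h with 20 ng/ml of interleukin 4, a signal of type 2 immune responses. In the group named IL-4 then LPS, the same IL-4 treatment was followed by a wash and the same LPS treatment. There were 2 libraries per group, and they keep the replicate numbers 1 and 3 of the labels. The sources used here do not give the strain, sex or age of the mice, or the growth factor of the culture.

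The lysosome is the acidic compartment in which macrophages degrade what they engulf and what autophagy delivers. The V-ATPase acidifies it, with a cytosolic V1 sector that splits ATP and a membrane V0 sector that moves protons, and the acid pH keeps cathepsins and glycosidases active. Many lysosomal genes share a promoter element, the CLEAR element, which is bound by the related factors Tfeb, Tfe3, Mitf and Tfec.

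Promoter sequence is shown first, as a feature by which the genes can be compared apart from their levels. Windows from 250 bases before to 50 bases after a RefSeq gene start (build GRCm38.p6, up to 3 windows for a gene) were at hand for 34 of the 42 genes. Atp6v1b2, Atp6v1c1, Atp6v1g1, Atp6v1h, Ctsb, Ctsh, Asah1 and Npc1 had no window. The core of the CLEAR element, TCACGTGA, was found in 8 of 34 (23.5%), against 2.25% of 9131 tested genes and 1.12% of all 27025 genes with a window. Among 74 lysosomal genes outside the 42 that had a window, it was found in 6 (8.11%). The shorter E-box CACGTG, which lies inside that core, was found in 14 of 34 (41.2%), against 12.0% of tested genes and 8.09% of all genes. Of the 74 lysosomal genes outside the 42, 14 (18.9%) held it. Both motifs read the same on both strands. The stretches of promoter that hold them are shown for a calcium channel (Mcoln1), a membrane protein (Cln3), a protease (Ctsd), a glycosidase (Gla), a pump subunit (Atp6v1a), a protease that also protects glycosidases (Ctsa), the membrane protein with the most abundant transcript (Lamp1) and a further pump subunit (Atp6v0b). Each is written 5′ to 3′ on the strand of the gene, with capitals marking each TCACGTGA, or each CACGTG where the longer core is not complete.
Mcoln1 (chr8:3500408-3500518, strand plus): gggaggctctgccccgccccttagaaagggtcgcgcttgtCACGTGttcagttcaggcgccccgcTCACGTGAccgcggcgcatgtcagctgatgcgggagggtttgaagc
Cln3 (chr7:126583312-126583425, strand minus): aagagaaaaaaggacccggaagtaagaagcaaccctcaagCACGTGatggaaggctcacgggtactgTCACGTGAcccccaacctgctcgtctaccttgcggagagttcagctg
Ctsd (chr7:142387880-142388077, strand minus): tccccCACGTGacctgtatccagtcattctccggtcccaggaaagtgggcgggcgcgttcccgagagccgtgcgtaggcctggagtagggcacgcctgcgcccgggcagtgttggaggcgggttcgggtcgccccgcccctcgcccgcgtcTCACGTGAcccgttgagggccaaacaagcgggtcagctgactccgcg
Gla (chrX:134601154-134601255, strand minus): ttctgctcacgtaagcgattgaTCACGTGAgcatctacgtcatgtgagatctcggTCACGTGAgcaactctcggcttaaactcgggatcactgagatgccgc
Atp6v1a (chr16:44139345-44139430, strand minus): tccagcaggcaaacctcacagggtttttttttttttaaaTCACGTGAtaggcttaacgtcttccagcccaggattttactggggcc
Ctsa (chr2:164833721-164833772, strand plus): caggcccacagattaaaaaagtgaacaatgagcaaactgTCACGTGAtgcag
Lamp1 (chr8:13159060-13159160, strand plus): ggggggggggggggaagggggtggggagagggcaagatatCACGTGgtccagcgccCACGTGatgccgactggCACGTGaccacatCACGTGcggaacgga
Atp6v0b (chr4:117887330-117887405, strand minus): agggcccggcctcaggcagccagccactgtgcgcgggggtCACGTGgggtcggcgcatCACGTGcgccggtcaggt

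Gla held the core at 2 places and Ctsa at 2, 1 of them after the gene start and so not in the stretch shown. Cln3, Ctsd and Mcoln1 held 1 full core and 1 further E-box. Lamp1 held 4 E-boxes within 61 bases of its start and Atp6v0b 2 within 36, all without the full core. Atp6v1a held 1 core, with its E-box starting 131 bases before the gene start. The cores of Atp6v0d1 and Atp6v0e lay at or just after the start, and single E-boxes were found for Ctsl, Gaa, Glb1 and Lgmn. A match describes these letters only and is not evidence that a factor was bound.

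**Figure D1:**
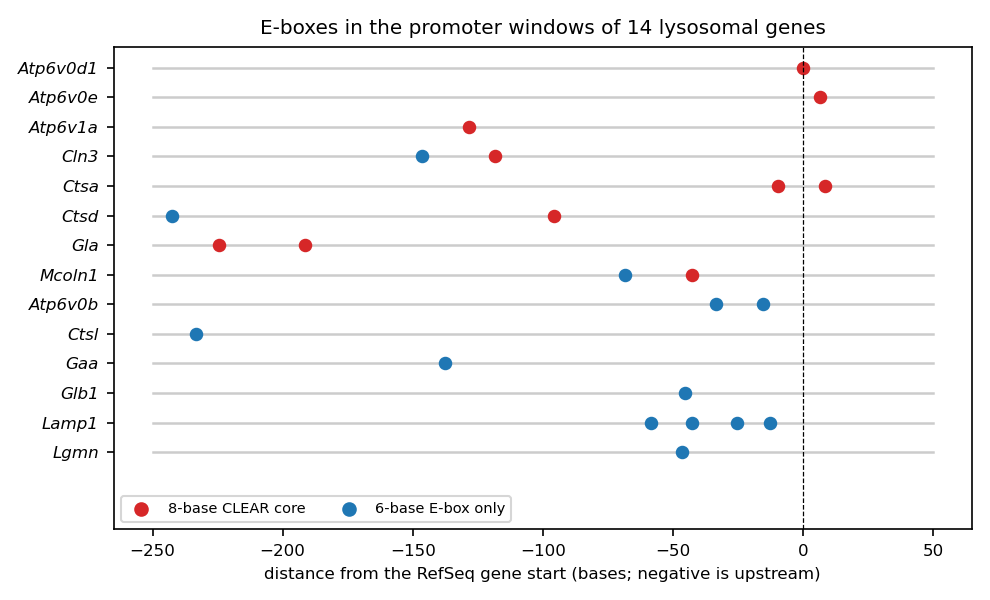
Position of E-boxes in the promoter windows of 14 lysosomal genes. The horizontal axis is the distance from the RefSeq gene start in bases, grey lines are the windows, red points are the 8-base CLEAR core and blue points E-boxes that lack the full core. Cores lie in 8 genes, from 227 bases before the start in Gla to just after it in Atp6v0e and Ctsa.

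Levels per length were set by a few digestive proteins. In control cells Psap, the precursor of the saposins that help lipid hydrolases, stood at 4472 and 5310 RPKM (reads per kilobase of gene length, scaled by library), and the cathepsin Ctss, which trims the MHC class II invariant chain, at 4170 and 4329. Ctsd, an aspartic protease, had a mean of 3132 RPKM and Ctsb, a cysteine protease, of 2408. The Psap and Ctss ranges did not overlap, and both lay above the means of the other 40 genes. By role the median control RPKM was 290.1 for the proteases, 88.1 for the hydrolases, 84.6 for the V1 sector, 79.9 for the membrane proteins and 58.3 for the V0 sector. The lowest means were those of Mcoln1 (10.1), Tfeb (12.0) and Atp6v1h (14.4), so that a regulator of the set was among its least abundant transcripts.

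As a share of all reads the 42 genes were large in every library and smaller with LPS. They took 7.32% and 7.64% of control counts, 7.28% and 8.32% of IL-4 counts, 4.78% and 4.79% of LPS counts, and 4.97% and 5.63% of counts after IL-4 then LPS. The libraries with LPS thus all lay below those without it. Ctsb (23.7% of the reads of the 42 genes), Psap (21.4%), Ctsd (10.8%) and Ctss (9.46%) made up 65.4% of that total. A share also depends on what other transcripts take of the library. The values below are CPM, the usual scaled counts, computed with edgeR's trimmed-mean (TMM) library factors. In bulk RNA, fewer cells of a type and less RNA per cell cannot be told apart.

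**Figure D2:**
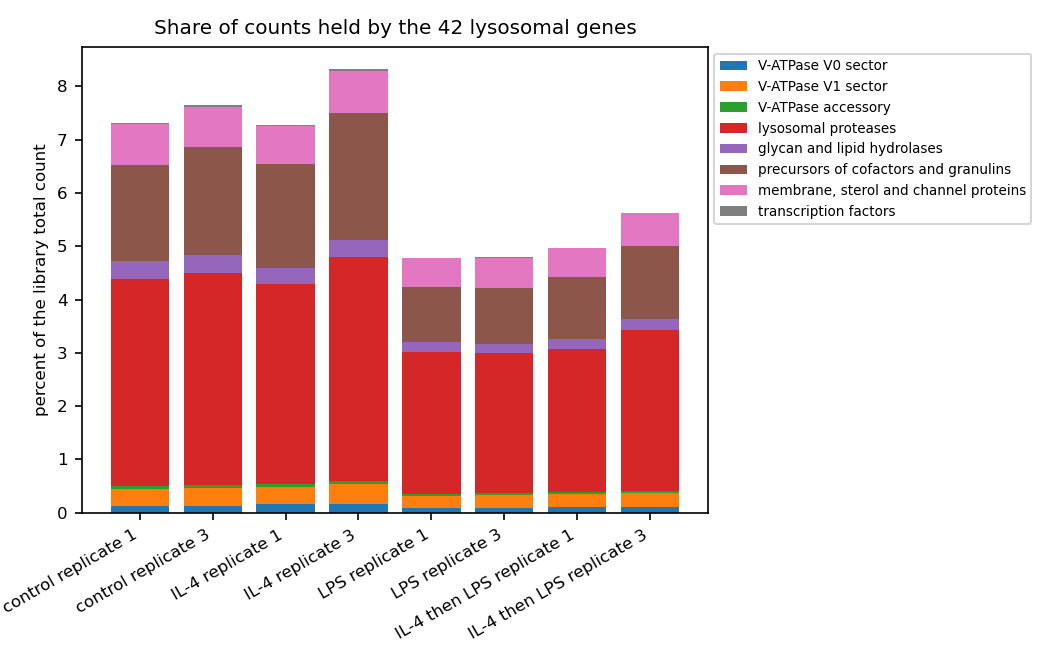
Share of each library's total count held by the 42 genes, in percent and stacked by role, for the 8 libraries. The bars without LPS reach 7.28% to 8.32% and those with LPS 4.78% to 5.63%.

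Libraries held 7924932 to 9431852 counts. Their TMM factors were 1.172 to 1.252 in the libraries without LPS and 0.786 to 0.866 in those with LPS, without overlap. The 6 macrophage markers summed to 2811 to 5840 CPM and were all tested, whereas neutrophil markers reached 0.56 CPM at most and erythroid markers 0.181. Some low-level markers of other cells were higher with LPS. Dendritic cell markers summed to 1.21 to 1.58 CPM in control and 7.19 to 12.3 with LPS, and stromal markers to 1.98 to 3.81 and 16.0 to 44.4. In the dendritic cell list Xcr1 had 0.346 and 0.198 CPM in control and 9.8 and 2.35 with LPS. Zbtb46, Ccr7 and Flt3 were also higher, at 2.49 CPM or less. Siglech (0.26 and 0.89, then 0.56 and 0.691) and Clec9a (0.433 and 0.0989, then 0 and 0.138) overlapped between the groups. Most of the stromal sum was Pdgfrb, a growth factor receptor (0.952 and 0.89 CPM in control, 14 and 41.3 with LPS), while Col1a1, Dcn and Col3a1 stayed at 2.07 CPM or less in these libraries. Lck, a kinase of lymphocytes picked here after its values were seen, had 0.433 and 0.396 CPM in control and 21.7 and 8.29 with LPS. Their part in the LPS results below was not tested.

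LPS against control asked which lysosomal genes changed within 4 h in cells that had seen no IL-4. Most of the 42 moved little, and the calls were split evenly between directions. Ctsc, Atp6v1e1, Cln3, Atp6v0b, Atp6v1h and Lamp2 rose, the last 3 of them falling below 0 with library-size scaling, and Tfeb, Npc1, Atp6v1c1, Atp6v0a1, Tfe3 and Gusb fell. These 6 and 6 of 42 compare with 21.8% of all tested genes called higher and 18.6% called lower (40.4% in either direction) by edgeR's quasi-likelihood test at an adjusted p under 0.05. The median log2 fold change of the 42 genes was -0.046, and -0.013 over all genes. Of the 42, 32 (76.2%) lay within 0.5 of no change on the log2 scale, against 42.6% of all tested genes.

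**Figure D3:**
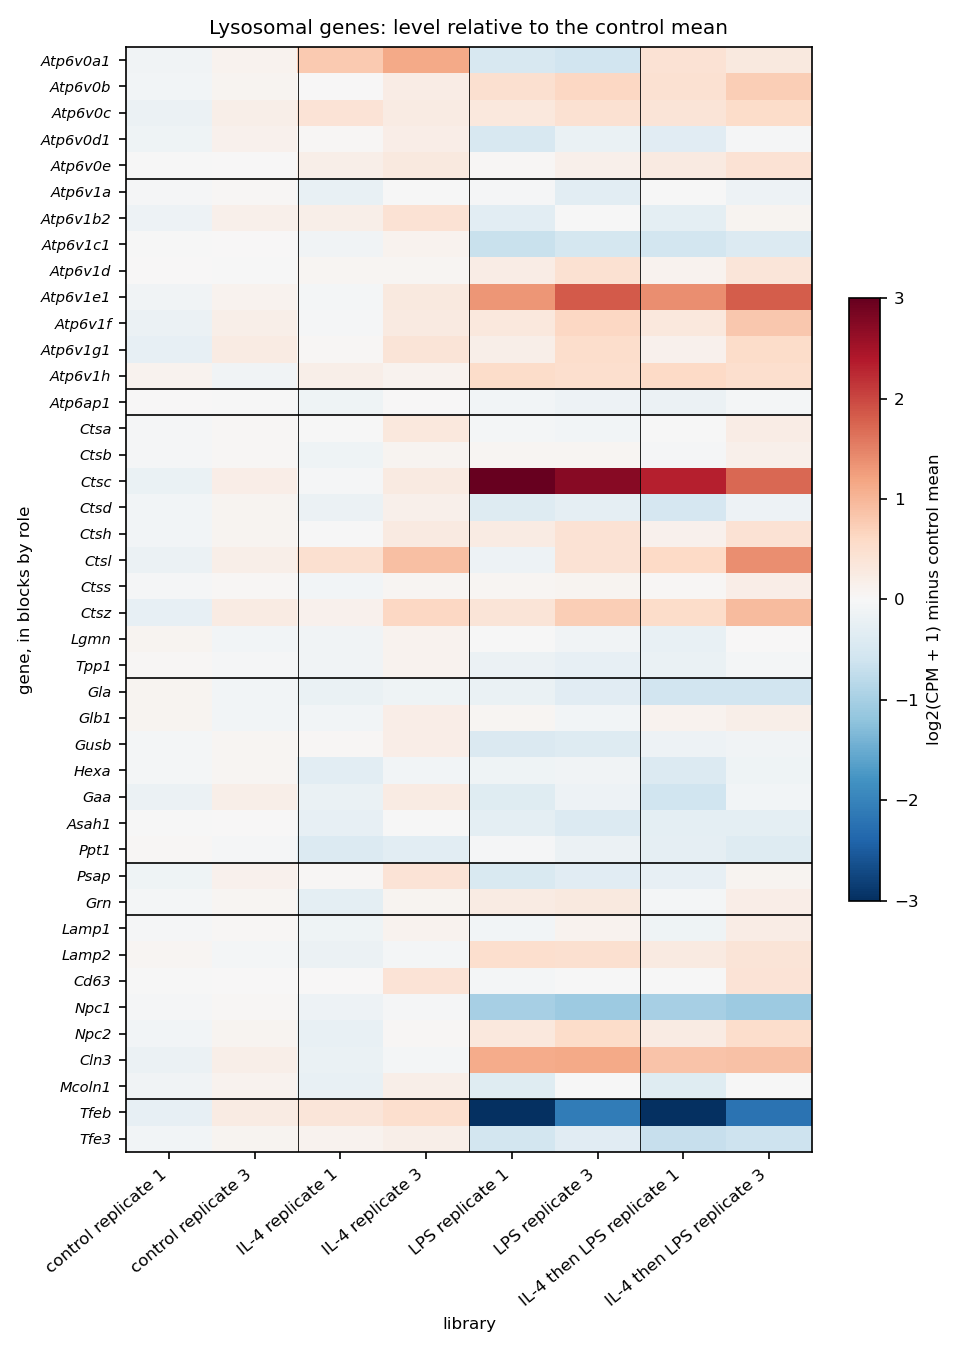
Level of each of the 42 genes in each library as log2(CPM + 1) minus the control mean, with genes in blocks by role and colours saturating at 3 in either direction. Ctsc, Atp6v1e1 and Cln3 are red and Tfeb and Npc1 blue in all 4 libraries with LPS, while most genes stay near white. The pale red of Atp6v0b, Atp6v1h and Lamp2 with LPS turns below 0 with library-size scaling.

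In the proton pump, 1 V1 subunit stood apart from the rest. Atp6v1e1, a subunit of the peripheral stalk (chromosome 6, 120794305 to 120822793, minus strand, mm10), had 159 and 181 CPM in control and 425 and 609 CPM with LPS. The groups did not overlap, and the rise was 1.61 ± 0.24 (log2, SE; adjusted p 0.00128 in edgeR's test), or 3.04-fold. The opposite-strand gene Slc25a18, whose exons overlap it, held at most 10 reads in any library. Of the other 7 V1 genes 1 fell and 1 rose, where 18.6% and 21.8% of all tested genes did. Atp6v1c1, a stalk subunit that regulates assembly, had 353 and 359 CPM in control and 225 and 246 with LPS, and fell by 0.59 ± 0.14 (adjusted p 0.0117). Atp6v1h, another regulatory subunit, rose by 0.53 ± 0.13 (0.0149) but turned to -0.08 with library-size scaling. The catalytic subunit Atp6v1a and the ATP-binding Atp6v1b2 were not called, at -0.17 ± 0.16 and -0.16 ± 0.21. Atp6v1f (0.475), Atp6v1g1 (0.35) and Atp6v1d (0.34) were not called either. These 3 passed with the replicate number as a block (adjusted p 0.00323, 0.0107 and 0.0286), but lay below 0 with library-size scaling (-0.13, -0.253 and -0.26). The block gave 5 higher and 1 lower of 8, where 28.2% and 25.5% of all genes were.

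In the V0 sector 1 gene of 5 rose and 1 fell, where 21.8% and 18.6% of all tested genes did. Atp6v0b, a proteolipid of the rotating ring, had 265 and 300 CPM in control and 393 and 434 with LPS, a rise of 0.55 ± 0.16 (adjusted p 0.0285) that turned to -0.055 with library-size scaling. Atp6v0a1, an isoform of the large subunit that lines the proton path, had 243 and 280 CPM in control and 187 and 176 with LPS, and fell by 0.53 ± 0.16 (0.0345). Neither pair of groups overlapped. Atp6v0c, Atp6v0d1 and Atp6v0e, and the accessory subunit Atp6ap1, were not called. With the block Atp6v0c was higher (0.38, adjusted p 0.0324, but -0.22 with library-size scaling) and Atp6v0d1 lower (-0.345, 0.0131). That made 2 of 5 higher and 2 lower, where 28.2% and 25.5% of all genes were.

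Of 10 proteases, Ctsc alone was called, where 40.4% of all tested genes were called in either direction. Ctsc encodes dipeptidyl peptidase 1, which activates the serine proteases of granules (chromosome 7, 88278085 to 88310888, plus strand). Its level was 103 and 136 CPM in control and 1071 and 785 CPM with LPS, far apart. The rise of 2.96 ± 0.28 (adjusted p 0.000135), or 7.78-fold, was the largest of the 42 genes. The abundant cathepsins gave no call. Ctsb had 14290 and 14850 CPM in control and 15240 and 15180 with LPS, Ctss 5663 and 5879 against 5989 and 6100, and Ctsd 6906 and 7822 against 5581 and 6088. Their groups did not overlap, but their log2 differences, of which that of Ctsd was -0.34 ± 0.21 (0.236), did not pass. With the block that of Ctsd did (adjusted p 0.0366). With the block 3 proteases were higher and 1 lower, where 28.2% and 25.5% of all genes were.

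The 7 hydrolases had a median of -0.27 and a range of -0.41 to -0.01. Of them 1 (14.3%) was called lower, against 18.6% of all tested genes. Gusb, the beta-glucuronidase, had 685 and 742 CPM in control and 527 and 548 with LPS, without overlap, and fell by 0.41 ± 0.14 (adjusted p 0.0491). With the block 3 hydrolases were lower and 0 higher, where 25.5% and 28.2% of all genes were. Psap had 12270 and 14570 CPM in control and 9702 and 10480 with LPS. Its difference of -0.41 ± 0.23 did not pass (adjusted p 0.181) except with the block (0.0176). Its companion Grn, the granulin precursor, was not called either.

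Membrane proteins held the clearest pair of opposite changes. Cln3, a lysosomal membrane protein whose loss causes a childhood neurodegeneration (chromosome 7, 126571207 to 126585817, minus strand), had 75.2 and 97.6 CPM in control and 185 and 189 with LPS, and rose by 1.11 ± 0.15 (adjusted p 0.000875). Its exons overlap those of Apobr on the opposite strand, which had 57.8 and 81.3 CPM in control and 160 and 145 with LPS. The sources do not state whether counting used strand, so reads of the 2 genes cannot be told apart where they overlap. Npc1, which exports cholesterol from the lysosome, had 419 and 439 CPM in control and 213 and 199 with LPS, and fell by 1.055 ± 0.13 (0.000531), or 2.08-fold. Its overlapping neighbour Rmc1 had 46.0 and 26.2 CPM in control and 27.7 and 18.9 with LPS, a small part of the Npc1 level. Npc2, which hands cholesterol to Npc1 inside the lysosome, was at 0.44 ± 0.19 (0.0956) and not called. It passed with the block (adjusted p 0.00645) but turned to -0.167 with library-size scaling. Lamp2, a coat protein of the membrane that also takes part in chaperone-mediated autophagy, rose by 0.49 ± 0.14 (0.0265) but turned to -0.11 with library-size scaling.

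Both transcription factors fell. Tfeb (chromosome 17, 47737030 to 47792419, plus strand) had 55.9 and 80.2 CPM in control and 6.72 and 14.9 with LPS, well below, and fell by 2.65 ± 0.47 (adjusted p 0.00307), or 6.27-fold. Per length it went from a mean of 12.0 to 1.91 RPKM. Tfe3 had 145 and 165 CPM in control and 106 and 123 with LPS, and fell by 0.44 ± 0.13 (0.0326). Their relatives went the other way. Tfec had 26.7 and 24.1 CPM in control and 132 and 119 with LPS and rose by 2.30 ± 0.18 (5.74e-05). Mitf, chosen after its values were seen, had 61.2 and 97.2 CPM against 183 and 210, and rose by 1.31 ± 0.24 (0.00341). The 8 genes with a CLEAR core had a median log2 fold change of -0.18, with Cln3 called. The 26 windowed genes without one had a median of 0.003, with 8 called. Of all tested genes 40.4% were called in either direction. These values are a description, with no test between genes with and without a core.

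Of the 12 calls, those of Ctsc, Atp6v1e1, Cln3, Npc1 and Tfeb held under all 14 alternative fits. Leaving out control replicate 3, LPS replicate 1 or LPS replicate 3 left 3 higher calls each and 3, 2 and 3 lower ones, and leaving out either library of IL-4 then LPS left 3 lower. The call of Gusb ended whichever single library was left out (adjusted p 0.0501 to 0.173). Atp6v0b lost its call without either library of control, LPS or IL-4 (0.0583 to 0.215), and so did Lamp2 (0.0609 to 0.175). Tfe3 (0.0537 to 0.166) and Atp6v0a1 (0.0514 to 0.157) lost theirs without control replicate 3 or either library of LPS or of IL-4 then LPS. Atp6v1h lost its call without control replicate 3 (0.122), LPS replicate 1 (0.0643) or LPS replicate 3 (0.0535), and Atp6v1c1 without LPS replicate 1 (0.0699). With the replicate number as a block, 13 of the 42 genes were higher and 11 lower, where 28.2% and 25.5% of all genes were. Among those added, picked here after their values were seen, were Ctsz (adjusted p 0.00178) and Npc2 (0.00645), which were higher, and Psap (0.0176) and Ctsd (0.0366), which were lower. With library size in place of TMM factors the median of all genes moved to -0.615 and that of the 42 genes to -0.65. Of the 42 genes 3 were then higher and 27 lower, where 12.6% and 47% of all genes were. Of all calls 21.2% were increases in place of 53.9%.

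**Figure D4:**
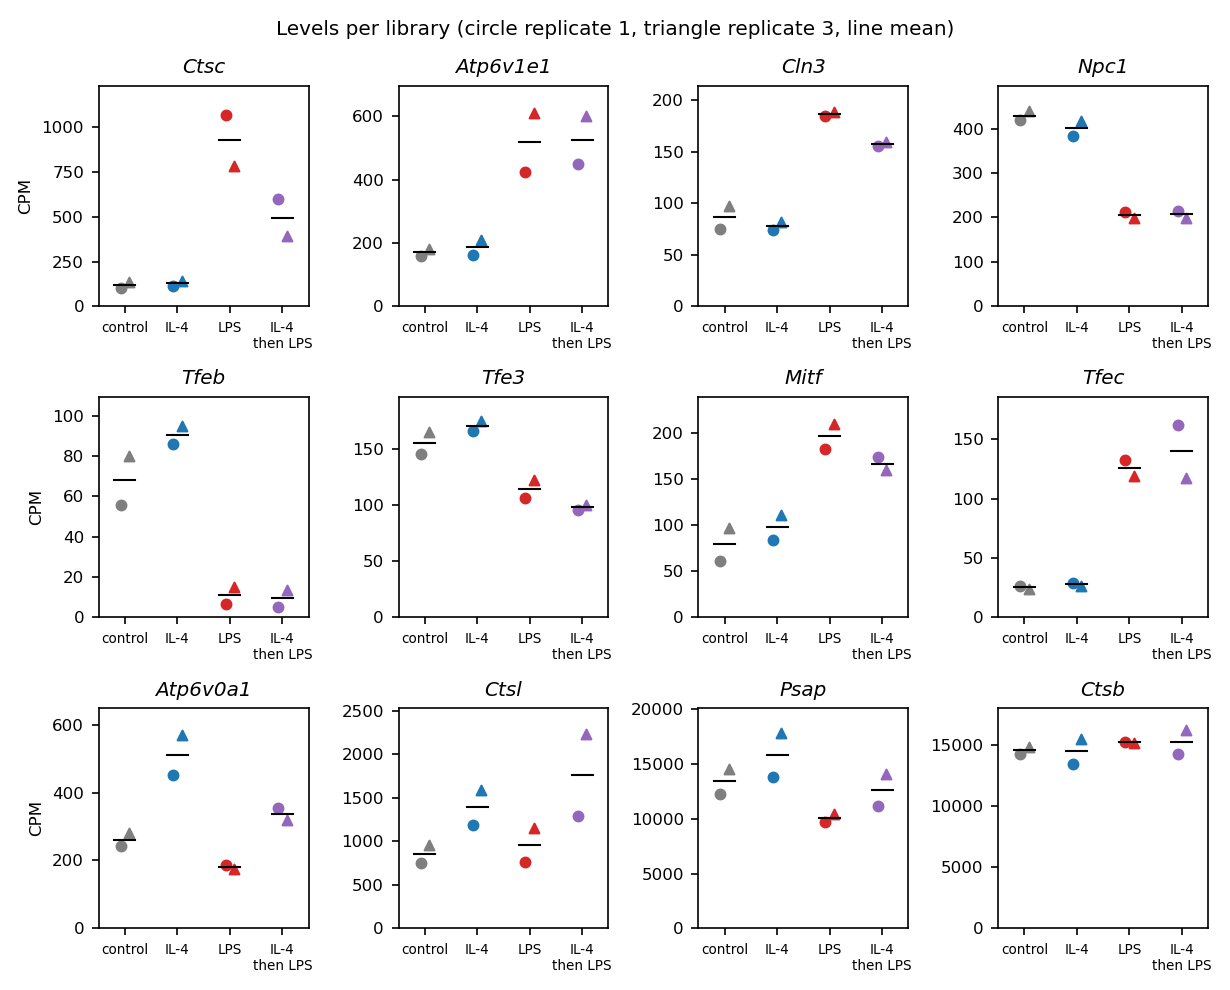
CPM per library (circle, replicate 1, and triangle, replicate 3) with the group mean as a line, for 10 of the 42 genes and for Mitf and Tfec. Ctsc, Atp6v1e1 and Cln3 are higher and Npc1, Tfeb and Tfe3 lower in both groups with LPS, and Atp6v0a1 and Ctsl are higher in both groups with IL-4.

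For IL-4 against control, the question was whether IL-4 alone changed these genes at rest. Of the 42, 0 were called by edgeR's test, where 0.0654% of all tested genes were (0.0572% higher and 0.00817% lower). An unadjusted p under 0.05 was found for 2 of the 42, Atp6v0a1 and Ppt1, against 7.29% of all tested genes. DESeq2 called 1, Atp6v0a1, higher, where it called 0.523% of all genes higher. The median log2 difference was 0.06, and 40 of 42 lay within 0.5 of no change, against 83.3% of all genes. The largest difference was that of Atp6v0a1, with 243 and 280 CPM in control and 452 and 570 with IL-4, and no overlap between the groups. It was 0.97 ± 0.16 (adjusted p 0.151 in edgeR's test, 0.00923 with the replicate number as a block). Ctsl, the cathepsin that processes many lysosomal proteins, had 747 and 958 CPM in control and 1189 and 1586 with IL-4, also without overlap. Its difference was 0.70 ± 0.32 (0.696, and 0.0283 with the block). Both passed with the block, where 1.5% of all genes were higher and 0.858% lower, and both passed in the fit without a filter on low counts. Tfeb had 86.0 and 94.8 CPM with IL-4, above both control libraries, at 0.41 and not called.

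IL-4 then LPS against LPS asked whether earlier IL-4 changed the level that LPS-treated cells reached. Again 0 of 42 genes were called by edgeR's test, against 0.0654% of all genes (0.049% higher and 0.0163% lower). An unadjusted p under 0.05 was found for 3 of the 42 (Atp6v0a1, Ctsl and Ctsc), against 8.5% of all tested genes. DESeq2 called 1, Atp6v0a1, higher, where it called 0.499% of all genes higher. Atp6v0a1 had 187 and 176 CPM with LPS and 353 and 318 with IL-4 then LPS, apart from each other, a difference of 0.89 ± 0.16 (adjusted p 0.16, and 0.0144 with the block). Ctsl had 764 and 1150 CPM against 1285 and 2225, at 0.88 ± 0.32 (0.5, and 0.0141 with the block). Ctsc lay the other way, with 1071 and 785 CPM against 598 and 394 and no overlap, and passed only in the fit without a filter (-0.90, adjusted p 0.000844). With the block 2 genes were higher, where 1.08% of all genes were higher and 1.22% lower. A list of 7 osteoclast markers, genes of a macrophage relative that carries much V-ATPase, was higher in the same libraries. Its sum was 461 to 527.5 CPM in control and 773 to 782 with IL-4, and 351 to 404 with LPS and 657.5 to 709 with IL-4 then LPS. Atp6v0d2, a pump gene outside the 42, and the cathepsin Ctsk made up most of it, while Mmp9 and Calcr were at 2.48 CPM or less. The list was split with LPS. Acp5, a phosphatase, had 7.62 and 16.5 CPM in control and 118 and 108 with LPS, more than Ctsk (63.6 and 71.4 with LPS). Atp6v0d2 went from 435 and 347.5 CPM in control to 215 and 166 with LPS. The fusion gene Dcstamp had 4.33 and 2.57 CPM in control and 27.9 and 35.5 with IL-4, and rose by 3.18 ± 0.28 (adjusted p 0.00748 in edgeR's test). Ocstamp, which also acts in fusion, had 0.433 and 0.198 CPM in control and 8.39 and 2.36 with IL-4 (adjusted p 0.253, and 0.0156 with the block). The part of this list in the Atp6v0a1 and Ctsl values was not tested.

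IL-4 then LPS against IL-4 gave the response to LPS in cells exposed to IL-4, with no library shared with LPS against control. Of the 42 genes 6 rose and 6 fell, where 20.7% of all genes were called higher and 18.6% lower (39.3% in either direction). The median was 0.04 against -0.04 over all genes, and 35 genes (83.3%) lay within 0.5 of no change against 44.6% of all. The 6 that rose were those that rose without IL-4, namely Ctsc, Atp6v1e1, Cln3, Atp6v0b, Atp6v1h and Lamp2, of which Atp6v0b, Atp6v1h and Lamp2 again turned below 0 with library-size scaling (-0.04, -0.13 and -0.08). Of those that fell, Tfeb, Npc1, Tfe3, Atp6v0a1 and Atp6v1c1 were shared. Gusb was called only without IL-4 and Gla only after it, but no difference between the arms passed for either.

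Ctsc had 114 and 142 CPM with IL-4 and 598 and 394 with IL-4 then LPS, well apart, and rose by 1.95 ± 0.27 (adjusted p 0.000971), or 3.87-fold. Atp6v1e1 had 163 and 208 CPM against 448 and 601.5, and rose by 1.5 ± 0.24 (0.00183). Cln3 had 74.5 and 82.2 against 155 and 160, and rose by 1.01 ± 0.15 (0.00151), while Apobr had 61.6 and 68.8 against 124 and 116. All 3 were separate from their IL-4 libraries. Npc1 had 384 and 417 CPM against 215 and 200, and fell by 0.95 ± 0.13 (0.000961). Tfeb had 86.0 and 94.8 CPM against 5.105 and 13.8, and fell by 3.25 ± 0.48 (0.00131), or 9.49-fold. Tfe3 had 166 and 174 CPM against 96.0 and 99.8, and fell by 0.80 ± 0.14 (0.00263). These 6 calls held under all 14 alternative fits. Gla, the alpha-galactosidase missing in Fabry disease and chosen after its values were seen, had 251 and 261 CPM against 194 and 193 and fell by 0.40 ± 0.13 (0.0422). Tfec again rose (2.33 ± 0.18, 5.53e-05). Mitf rose by 0.77 ± 0.23 (0.0329), and this call ended with library-size scaling (0.26, adjusted p 0.324), with upper-quartile scaling (0.0912), and without replicate 1 of IL-4 (0.186) or either library of IL-4 then LPS (0.119 and 0.0863).

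The weaker calls of this arm were also lost when single libraries were left out, including libraries of groups not compared. The differences then moved little. Without control replicate 1, Gla was at -0.394 (-0.403 with all libraries) and Lamp2 at 0.449 (0.44). Leaving out either LPS library, either IL-4 library or IL-4 then LPS replicate 3 left 3 higher calls, and leaving out IL-4 replicate 3 or either library of IL-4 then LPS left 3 lower. The calls of Gla (adjusted p 0.0593 to 0.18) and Lamp2 (0.0655 to 0.2) ended whichever single library was left out. Atp6v0b lost its call without any library other than IL-4 then LPS replicate 1 (0.0644 to 0.259). Atp6v1h lost its call without either library of LPS, IL-4 or IL-4 then LPS (0.067 to 0.173). Atp6v1c1 lost its call without either control library, IL-4 replicate 3 or either library of IL-4 then LPS (0.054 to 0.193). That of Atp6v0a1 ended without replicate 3 of IL-4 (0.151) or either library of IL-4 then LPS (0.0554 and 0.123). With the replicate block 9 were higher and 11 lower, where 26% and 25.8% of all genes were. It added Npc2 (adjusted p 0.00381), Atp6v1f (0.00446) and Ctsz (0.0174) as higher, all below 0 with library-size scaling. As lower it added Atp6v1b2 (0.00693), Gaa (0.0208), Atp6v0d1 (0.0271), Ctsd (0.045) and Psap (0.0468).

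The difference between the LPS responses, the interaction, asked whether earlier IL-4 altered them. No gene of the 42 passed in edgeR's test, where 0% of all genes did. In DESeq2 0 passed, where 0.0327% of all genes were higher and 0.00817% lower. With the replicate block 0 passed, where 0% of all genes were higher and 0.00817% lower. An unadjusted p under 0.05 was found for 1 of the 42, against 2.63% of all tested genes. It was that of Ctsc, whose response after IL-4 was 1.01 ± 0.37 lower on the log2 scale (adjusted p 1). The next 2 in size among called genes were Tfeb, at -0.60 ± 0.65, and Tfe3, at -0.36 ± 0.19. In 39 of 42 genes the responses of the 2 arms had the same sign, and in 39 they differed by less than 0.25. Neither count was made over all tested genes, where the difference between arms had quartiles of -0.243 and 0.177. Across the 42 genes Pearson's r between the arms was 0.96 and Spearman's rho 0.966, and r was 0.962 without Tfeb and Ctsc. Over all tested genes r was 0.927, and genes are not independent replicates.

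**Figure D5:**
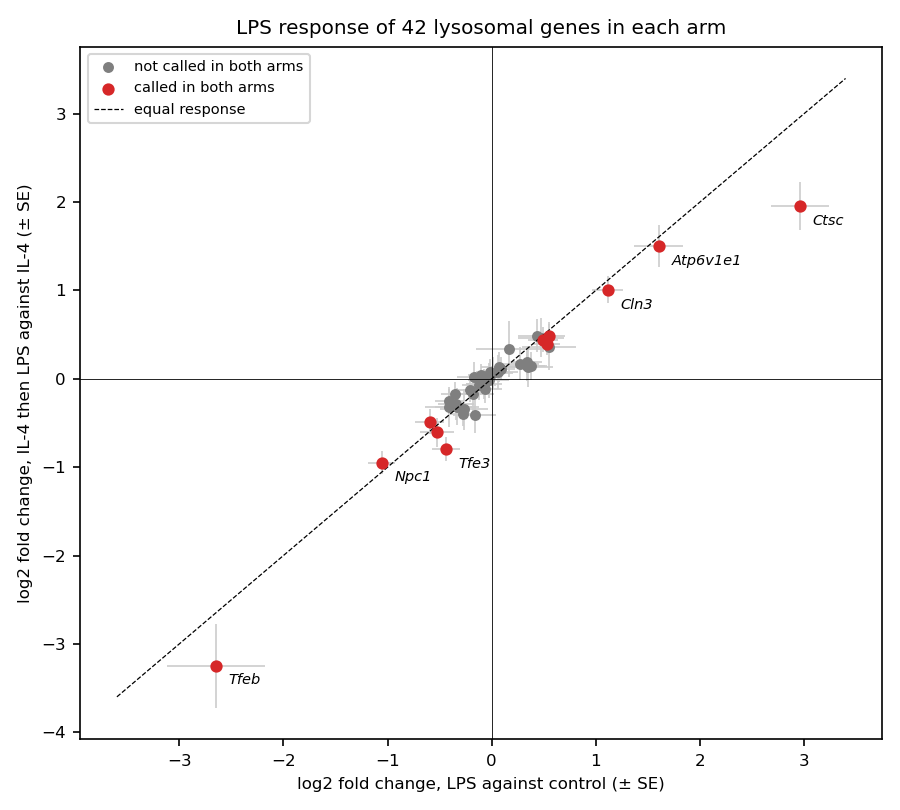
Log2 fold change with LPS in cells without IL-4 (horizontal) and after IL-4 (vertical), with SE bars, for the 42 genes. Red points were called in both arms and the dashed line marks equal responses. Ctsc lies below the line, at 2.96 and 1.95, and the red points near 0.5 are Atp6v0b, Atp6v1h and Lamp2, which turn below 0 with library-size scaling.

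Lysosomal genes outside the 42 were called in both directions with LPS. Of 93 listed, 84 were tested, and 16 rose and 25 fell without IL-4 (48.8%, against 40.4% of all tested genes, with a median of -0.12). After IL-4, 14 rose and 26 fell (47.6% against 39.3%, median -0.11). The largest that rose without IL-4 were Acp5, the tartrate-resistant phosphatase (3.24 ± 0.39), Rnaset2b, a ribonuclease with a near-identical copy that makes its count uncertain (2.96 ± 0.41), Tfec, and the autophagy receptor Sqstm1 (1.93 ± 0.16). The largest that fell were Sgsh, a heparan sulfatase (-3.31 ± 0.26), Hyal1, a hyaluronidase (-2.26 ± 0.33), the two-pore channel Tpcn1 (-2.19 ± 0.35) and Rragd, a GTPase of the mTORC1 pathway (-1.94 ± 0.52). Rragd lost its call without control replicate 1 (adjusted p 0.0888) or LPS replicate 3 (0.0857). After IL-4 the first 4 in each direction were Rnaset2b (3.90), Acp5 (2.79), Tfec (2.33) and Sqstm1 (1.95), and Sgsh (-2.98), Fnip2, a folliculin partner (-2.50), Rragd (-2.39) and Tpcn1 (-2.34). Here Rragd lost its call without IL-4 then LPS replicate 3 (0.0619), and the 14 higher calls were 6 to 9 without either library of IL-4 or of IL-4 then LPS. With library-size scaling the calls were 7 higher and 55 lower without IL-4, and 6 and 49 after it. Of all genes that scaling called 12.6% higher and 47% lower without IL-4, and 12.6% and 43.5% after it.

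In the comparisons of IL-4 none of these 84 genes passed in edgeR's test. An unadjusted p under 0.05 was found for 9 and 10 of them, where 7.29% and 8.5% of all tested genes had one. DESeq2 called Ctsk higher in both, and Fnip2 and Slc11a1 lower in IL-4 then LPS against LPS. With the replicate block 4 rose and 1 fell at rest, and 3 rose and 2 fell in LPS-treated cells. Ctsk, a collagen-degrading cathepsin, was at 0.92 ± 0.16 at rest (adjusted p 0.164, and 0.00369 with the block) and 0.96 ± 0.16 with LPS (0.144, and 0.00385). Ifi30, the thiol reductase of the lysosome, passed in both with the block (0.0137 and 0.0141). Sgsh was lower at rest (0.018) and Fnip2 in LPS-treated cells (0.00657), both with the block.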

How the data were processed

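The deposited table holds raw read counts made by the authors, whole numbers per gene for 8 libraries, with gene positions and a gene length in bases. The submitters' processing notes name HISAT2, StringTie and HTSeq and the mm10 genome. Versions, strandedness and how multi-mapping reads were counted are not given in the sources used here. A further 6 count columns match no label and were left out. Of the 42 genes, 40 had the start, end and length given by GENCODE M21.

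Genes were kept with filterByExpr in edgeR 4.0.16 (minimum count 10), scaled with TMM factors and tested with the quasi-likelihood F test (limma 3.58.1, R 4.3.3), with 1 mean per group over all 8 libraries (4 residual and 3.78 prior degrees of freedom, common dispersion 0.0402). Adjusted p-values are Benjamini-Hochberg values over all 12234 genes. The SE of a log2 fold change is its size over the square root of its F statistic. DESeq2 1.42.0 was an alternative, beside library-size and upper-quartile scaling, no filter, only the groups compared, a replicate block and leaving out each library. The labels give replicate numbers and not their meaning. Same-numbered libraries deviated together from their group means in all 6 pairs of groups (correlations 0.343 to 0.524) which meets the rule used here for pairing. The calls given first are from the fit without the block, and values with the block are given for part of those that it changed. Whether they share an animal or culture, or are technical, is not given, so p-values measure only the spread between these libraries. CPM per kilobase of the deposited gene length gave RPKM.

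The 42 genes and all lists were chosen with earlier results of these data known. Levels per library are given, within each role, for the genes with the largest called change in each direction of LPS against control, and for genes called in a comparison of IL-4, the most abundant genes and both transcription factors. Of the other lysosomal genes, up to 4 called genes of largest change per direction are named. Ctsl (called only with the block or without a filter), Gla and Mitf were added after their values were seen. The test was also run on simulated counts, drawn separately for each library with no replicate effect. Its outcome there is not given, and it does not bear on the shared deviation of same-numbered libraries. The sum of 1 marker list is not reported here.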

Additional observations from a re-analysis of the deposited data

How the results depend on the processing

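Ctsc, Atp6v1e1, Cln3, Npc1 and Tfeb kept direction and call in both LPS comparisons under all 14 alternatives, as did Tfe3 after IL-4. Counts are given as higher and lower calls. In LPS against control (6 and 6) the 42 genes gave 3 and 27 with library-size scaling, 3 and 14 with upper-quartile scaling, 13 and 11 with the replicate block, and 3 to 6 and 2 to 5 without 1 library. In the LPS comparison after IL-4 (6 and 6) they gave 3 and 28, 3 and 11, and 9 and 11 in the same order, 3 higher without a filter, 3 higher with only the groups compared, and 3 to 4 and 3 to 5 without 1 library. In IL-4 against control (0 and 0) DESeq2 gave 1 higher, no filter 2 and the replicate block 2. In IL-4 then LPS against LPS (0 and 0) DESeq2 gave 1 higher, no filter 2 and 1, and the replicate block 2 higher. Other lysosomal genes gave 7 and 55 with library-size scaling in LPS against control (16 and 25), and 11 to 16 and 20 to 24 without 1 library. After IL-4 (14 and 26) they gave 6 and 49 with library-size scaling, 8 higher with upper-quartile scaling, and 6 to 14 and 20 to 24 without 1 library. In IL-4 against control they gave 1 higher with DESeq2, 4 and 1 without a filter and 4 and 1 with the replicate block, and in IL-4 then LPS against LPS 1 and 2, 4 and 2, and 3 and 2. The replicate block moved no other count in this paragraph by over 1.5 times. Its counts by role are given above for some roles in LPS against control only. Without 1 library no lysosomal gene of either list was called in either comparison of IL-4 or in the interaction. Over all genes, IL-4 against control gave 7 and 1, but 64 and 45 with DESeq2, 198 and 162 without a filter and 183 and 105 with the block, and IL-4 then LPS against LPS gave 6 and 2, but 61 and 58, 172 and 225, and 132 and 149. Upper-quartile scaling called 16.7% of all genes higher and 29% lower in LPS against control, and 15.7% and 28% after IL-4. Library-size scaling called 12.6% and 47%, and 12.6% and 43.5%, in the same order. Upper-quartile scaling moved the median of all genes to -0.278 in LPS against control, where 36.6% of calls were increases, and to -0.284 after IL-4 (36%). Library-size scaling moved the latter to -0.557 (22.5%, against 52.8% with TMM). Among genes called with TMM factors, with or without the block, that scaling turned 33 values below 0 that were above it. In LPS against control these were Atp6v0b -0.055, Atp6v0c -0.223, Atp6v1d -0.264, Atp6v1f -0.128, Atp6v1g1 -0.253, Atp6v1h -0.077, Ctsh -0.261, Ctsz -0.05, Lamp2 -0.114, Npc2 -0.167, Atp6v0a2 -0.119, Scpep1 -0.02, Cst3 -0.257, Cstb -0.225, Ids -0.298, Scarb2 -0.341, Laptm4a -0.225, Rragc -0.238, Mtor -0.245. After IL-4 they were Atp6v0b -0.04, Atp6v1f -0.06, Atp6v1h -0.125, Ctsz -0.163, Lamp2 -0.082, Npc2 -0.036, Atp6v0a2 -0.098, Tcirg1 -0.106, Ids -0.099, Scarb2 -0.22, Laptm4a -0.258, M6pr -0.008, Gnptab -0.11, Rragc -0.053. Upper-quartile scaling turned Scarb2 to -0.003 in LPS against control. The cause of these differences was not tested, beyond the lower median that each scaling gave to all genes.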

Other observations

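Among the 42 genes, libraries numbered 3 often stood above those numbered 1. This count was not made over all tested genes, so whether it is particular to the 42 is not known. In 25 of the 42 genes replicate 3 was above replicate 1 in all 4 groups, in 1, Atp6v1h, it was below in all 4, and 16 were mixed. The labels do not say what the numbers stand for.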
